A study of Mus musculus with 74 samples.

Results

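The epithelium of the mouse forestomach, the squamous part of the stomach, was compared between embryonic day 14 (E14) and embryonic day 16 (E16). The comparison rests on 4 RNA-seq libraries of the 74 samples in the series, chosen by their labels: 2 at E14 and 2 at E16. All 4 came from untreated wild-type CD1 embryos, and forestomachs were digested with trypsin and sorted for Epcam, a surface protein of epithelial cells. Libraries made in the same way from WT CD1 forestomach at E12, from hindstomach (the glandular part of the stomach) at E14 and E16, and from small intestine at E14 and E16, 2 per group, were used for comparison; the labels call the E14 small intestine midgut. The spread between replicates was estimated over 27 embryonic libraries. Beside the groups above these were WT CD1 hindstomach and midgut at E12, WT CD1 small intestine at E18, and Cdx2-/- small intestine on a B6;129 mixed background: Cdx2f/f; Shh-Cre at E16 (deleted at E10, 3 libraries), and Cdx2f/f; Villin-Cre at E16 (deleted at E13) and at E18 (deleted at E15). With only the E14 and E16 forestomach libraries in the fit, 6423 genes were called against 6494. The labels do not say whether replicates came from separate litters or how many stomachs were pooled, so p-values measure only the spread between these samples, which may be technical. The Y-linked genes Ddx3y, Eif2s3y, Kdm5d and Uty were at 0 in both E14 forestomach libraries and above 0 in both E12 and both E16 libraries. The labels do not give the sex of the embryos, and in these libraries its make-up and the stage cannot be told apart.

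A stratified epithelium is built from a basal layer that divides on the basement membrane and from suprabasal layers that leave the cell cycle, change their keratins and at last cross-link a cornified envelope under the cell membrane. The transcription factor p63, encoded by Trp63, marks the basal state, with the keratin pair Krt5 and Krt14. Keratins Krt4 and Krt13 mark the suprabasal cells of internal stratified epithelia such as oesophagus and forestomach, while Krt8, Krt18 and Krt19 are typical of simple epithelia.

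The E14 libraries held 18075525 and 21615921 counts over genes, and the E16 libraries held 5970227 and 6335340. Levels are CPM after TMM scaling, that is, counts relative to library size, a unit that compares a gene between libraries and not genes with each other. Calls needed both an adjusted p below 0.05 (edgeR's quasi-likelihood test, Benjamini-Hochberg) and a shift of 1 or more on the log2 scale, up or down. Of 17239 genes tested, 3587 (20.8%) were called higher at E16 and 2907 (16.9%) lower, 37.7% in all. With the RLE size factors the counts were 4261 higher and 2039 lower, so that 67.6% of calls were higher against 55.2% with TMM, and the median over all genes tested moved by 0.30 on the log2 scale. These shares are the background for each count of list members.

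The E16 forestomach libraries held more RNA of other cell types than the E14 libraries, despite the labelled sort. Genes that mark blood, immune cells, mesenchyme, muscle, endothelium and nerve together took 0.0409% and 0.0398% of counts at E14 and 5.27% and 6.35% at E16, and 71 of the 75 tested were called higher and 0 lower. In hindstomach the same sum was 0.0373% and 0.0389% at E14 and 1.58% and 1.72% at E16. Muscle, erythroid and mesenchymal markers made up most of the E16 forestomach sum, at 1.82% and 2.23%, 1.70% and 2.22%, and 1.52% and 1.72%, and were lower in E16 hindstomach. Immune markers were at 0.175% and 0.124% in E16 forestomach and at 0.157% and 0.184% in E16 hindstomach, and nerve markers were lower in forestomach, at 0.0148% and 0.0112% against 0.148% and 0.144%. The muscle genes Acta2 and Actg2 were at 7027 and 8577 CPM and at 4754 and 6084 CPM in the E16 forestomach libraries, and the erythroid gene Alas2, an enzyme of haem synthesis, rose from 1.75 and 0.759 CPM to 13298 and 18234 CPM. Of the 13 erythroid genes in the table, 6 adult globin genes were at 0 in all 4 libraries. The erythroid share and the sum hold no counts of them, and why they are at 0 was not tested.

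The general epithelial genes moved the other way. Their 16 members took 0.534% and 0.540% of counts at E14 and 0.158% and 0.143% at E16, and 11 of 16 were called lower and 1 higher, with a median log2 fold change of -1.35. Epcam, the protein the cells were sorted on, fell from 806 and 825 CPM to 137 and 112 CPM, a log2 fold change of -2.71 (adjusted p = 2.3e-11, edgeR). Dissociation and heat stress genes, such as Fos and Egr1, also rose, all 20 of the 20 tested, and their summed share went from 0.304% and 0.305% to 2.87% and 2.11%. In hindstomach all 20 were called higher as well, and their share went from 0.389% and 0.381% to 2.41% and 2.35%. The part of these shifts in the results below was not tested, and in bulk RNA fewer cells of a type and less RNA per cell cannot be told apart. Many of the falls are also given after scaling the libraries to the geometric mean of 14 general epithelial markers. This setting, chosen after seeing the data, raised the median of all log2 fold changes by 1.53. The list they come from holds Epcam, Cdh1, Grhl2, Krt8, Krt18 and Ovol1, so scaled values of such genes are partly measured against themselves. Krt8 and Krt18 are typical of simple epithelia, and in hindstomach the list's median log2 fold change was 0.08. A scaled value is a change relative to these markers and no correction for epithelial content.

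**Figure D1:**
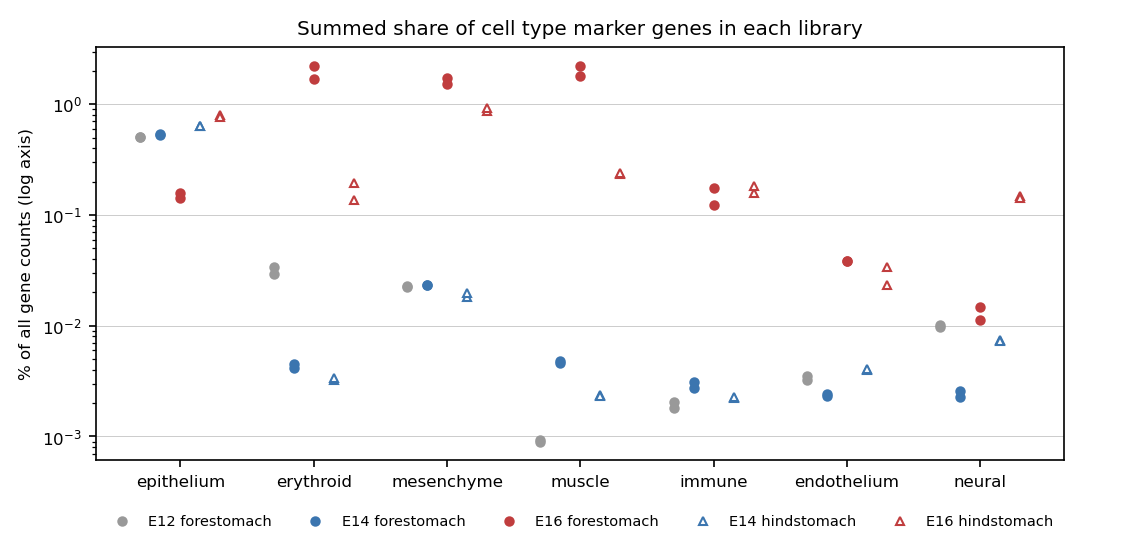
Summed share of counts (%, log axis) of marker genes of 7 tissues in each library, with forestomach as filled circles and hindstomach as open triangles, coloured by stage. In forestomach at E16 the epithelial share is below its E14 level, and each of the other 6 shares is above it.

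Most suprabasal genes tested rose. Of 27 counted genes 24 were tested, and 18 were called higher at E16 and 1 lower, beside 20.8% and 16.9% of all genes tested. The list's median log2 fold change was 4.91 (4.79 with genes at 0 counts in a group set to their bound), against 0.00 (0.01) over all genes tested. In this and all later lists the members were chosen with earlier results of these data known, so a count is a description of the list.

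Krt4, the type II keratin of internal stratified epithelia, was at 5.52 and 8.31 CPM at E14 and at 1310 and 1621 CPM at E16. The stages did not overlap, and the log2 fold change was 7.72 (SE 0.73, adjusted p = 9.6e-08, edgeR, n = 2 per stage). Its type I partner Krt13 was at 3.81 and 5.39 CPM at E14 and at 636 and 584 CPM at E16, a log2 fold change of 7.04 (SE 0.57). Both keratins were at or near 0 at E12, with Krt13 at 0 in both libraries.

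Small secreted and membrane proteins of suprabasal cells rose with them. Krtdap, a keratinocyte differentiation protein, went from 0.342 and 0.398 CPM to 241 and 181 CPM, a log2 fold change of 9.13 (SE 0.78). Dmkn, the secreted protein dermokine, was at 0 and 0.289 CPM at E14 and at 142 and 108 CPM at E16. Ly6d went from 0.471 and 0.578 CPM to 175 and 141 CPM, and Mal from 1.16 and 1.12 CPM to 103 and 113 CPM. Sbsn, the secreted protein suprabasin, went from 1.41 and 1.19 CPM to 17 and 14.7 CPM (log2 fold change 3.60, SE 0.53). For each of these genes both E16 libraries lay above both E14 libraries, by more than the spread within a stage.

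Keratins of stressed and hyperproliferative epidermis were called as well. Krt6a went from 3.77 and 3.98 CPM to 146 and 163 CPM, and Krt17 from 29.1 and 25.1 CPM to 124 and 111 CPM (adjusted p = 0.048, edgeR). Krt16 had 0 and 3 counts at E14 and stood at 22.4 and 26.2 CPM at E16, a ratio of 413 (95% counting interval 140 to 2014). Krt6b and Calml3, a calmodulin-like protein, had 0 counts at E14 and rose by at least 33.8-fold (Krt6b) and 56.4-fold (Calml3), against a floor of 3 counts per library. The Krt6b call was lost without E14 replicate 1 (adjusted p = 0.0548), without E14 replicate 2 (0.058) and with DESeq2 (0.212), and the Calml3 call with DESeq2 (0.273). Intervals and floors cover counting error only.

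The keratin pair of epidermal suprabasal layers was not called. Krt1 was at 4.36 and 4.41 CPM at E14 and at 9.11 and 8.73 CPM at E16 (log2 fold change 1.02, SE 1.17, adjusted p = 0.496, edgeR); it was called with only the groups compared (1.06, adjusted p = 0.0355). Krt10 was at 12.4 and 13.1 CPM and then at 34.9 and 15.3 CPM, with a log2 fold change of 0.98 (adjusted p = 0.0333, edgeR), just under the fold minimum. Krt10 was called higher with DESeq2 and RLE size factors (1.28 each), with only the groups compared (1.02), with thinned counts (1.04), with epithelial scaling (2.48) and without E16 replicate 2 (1.45). The 2 E16 libraries differed from each other more in Krt10 than the lower of them differed from E14. Anxa8 was the single suprabasal gene called lower, from 134 and 135 CPM to 53.9 and 42.7 CPM, and its log2 fold change of -1.48 became 0.05 with epithelial scaling and was not called without E16 replicate 2 (adjusted p = 0.0684).

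**Figure D2:**
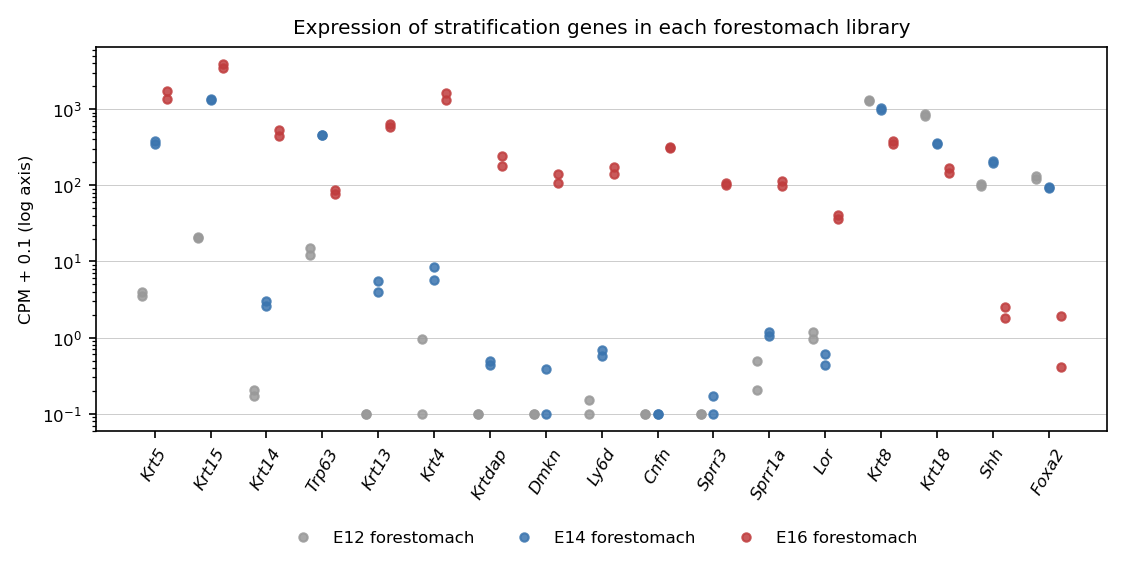
Level of 17 genes in each of the 6 forestomach libraries, as CPM with 0.1 added so that libraries at 0 can be drawn on the log axis; points are libraries, coloured by stage. Keratins Krt4, Krt13 and Krt14 and the genes from Krtdap to Lor lie highest at E16, while Trp63, Krt8, Krt18, Shh and Foxa2 lie lower at E16 than at E14.

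Genes of the cornified envelope were more divided. The table holds 52, of which 22 were counted often enough to be tested. Of those, 12 were called higher and 1 lower (background 20.8% and 16.9%). The median log2 fold change was 4.54, or 3.54 with genes at 0 counts in a group set to their bound. Of the 52, 37 were at 0 counts in both E14 libraries, and such a gene could only be called higher or not called. Cnfn, the envelope protein cornifelin, had 0 counts in both E14 libraries and stood at 317 and 308 CPM at E16, at least 2640-fold higher. Sprr3, a small proline-rich protein of internal epithelia that is cross-linked into the envelope, had 0 and 2 counts at E14 and stood at 99.9 and 106 CPM at E16, a ratio of 2630 (95% counting interval 726 to 21723).

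Lor, which encodes the envelope protein loricrin, went from 0.342 and 0.506 CPM to 36.1 and 40 CPM (log2 fold change 6.46, SE 0.92). Sprr1a, another small proline-rich protein, went from 0.941 and 1.08 CPM to 114 and 97.1 CPM (log2 fold change 6.69, SE 0.51). Crct1, a gene of the same chromosomal complex, had 0 counts at E14 and was at least 355-fold higher at E16 (not called with DESeq2, adjusted p = 0.154). Lce3a, a late envelope protein, was at 1.54 and 4.29 CPM at E16 from 0 counts at E14; its adjusted p of 0.0155 rose to 0.0697 and 0.0726 without E14 replicate 1 or 2 and to 0.343 with DESeq2. With DESeq2 the list held 7 members called higher.

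Other envelope genes were near 0 at both stages or present already at E14. Ivl, which encodes involucrin, was at 0.214 and 0.0361 CPM at E14 and at 0.463 and 1.22 CPM at E16, and was not called (adjusted p = 0.196, edgeR; 0.0416 with epithelial scaling). Of the 21 Lce genes in the table, 19 were at 0 in both E16 libraries. Tgm1, the keratinocyte transglutaminase, was at 93.5 and 103 CPM and then at 82.1 and 59.5 CPM, and was not called. The plakin Ppl fell from 123 and 133 CPM to 50.5 and 65.7 CPM, a log2 fold change of -1.14 that became 0.40 with epithelial scaling and, under the fold minimum, -0.97 without E16 replicate 1 and -0.84 with DESeq2 or RLE size factors.

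Promoters of 17 of the 30 suprabasal and envelope genes called higher were matched by symbol in RefSeq (GRCm38.p6), each as a window of 250 bases before and 50 bases after the first listed start; Krt4 was not among the matches. Of these 17 windows, 7 held the AP-1 motif TGANTCA on either strand, 7 held the TATA box letters TATAAA, and 1 held the Grainyhead motif AACNNGTT. The same letters were found in 7.93%, 14.2% and 4.19% of 27025 windows of the same length. A match is a description of the letters and not a binding site. The 250 bases before the start are shown for 6 of the genes described above, chosen as examples of both lists after their values were seen, 5′ to 3′ along the gene, with matches in capitals; no 2 matches overlap, and Cnfn has none of the 3 motifs.
Krtdap, chr7:30787655-30787904, plus strand: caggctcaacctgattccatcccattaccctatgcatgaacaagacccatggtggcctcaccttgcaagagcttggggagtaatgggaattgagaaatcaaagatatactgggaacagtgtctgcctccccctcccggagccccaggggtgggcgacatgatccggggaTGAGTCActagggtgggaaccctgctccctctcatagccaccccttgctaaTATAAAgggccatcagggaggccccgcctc
Sprr1a, chr3:92485882-92486131, minus strand: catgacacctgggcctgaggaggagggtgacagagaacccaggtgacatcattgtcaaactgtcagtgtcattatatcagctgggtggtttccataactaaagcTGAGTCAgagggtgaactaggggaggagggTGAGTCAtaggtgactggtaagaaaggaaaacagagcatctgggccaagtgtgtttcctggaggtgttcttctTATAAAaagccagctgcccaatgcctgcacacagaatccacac
Lor, chr3:92083143-92083392, minus strand: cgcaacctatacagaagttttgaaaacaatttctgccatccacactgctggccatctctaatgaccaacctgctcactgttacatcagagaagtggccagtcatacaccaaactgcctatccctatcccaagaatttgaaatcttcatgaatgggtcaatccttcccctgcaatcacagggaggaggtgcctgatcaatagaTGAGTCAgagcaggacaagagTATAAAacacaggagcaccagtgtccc
Sprr3, chr3:92458721-92458970, minus strand: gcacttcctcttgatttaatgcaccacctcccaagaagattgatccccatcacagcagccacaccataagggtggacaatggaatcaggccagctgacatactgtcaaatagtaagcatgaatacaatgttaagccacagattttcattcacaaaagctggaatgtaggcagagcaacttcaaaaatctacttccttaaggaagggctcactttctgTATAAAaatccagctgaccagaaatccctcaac
Krt13, chr11:100121567-100121816, minus strand: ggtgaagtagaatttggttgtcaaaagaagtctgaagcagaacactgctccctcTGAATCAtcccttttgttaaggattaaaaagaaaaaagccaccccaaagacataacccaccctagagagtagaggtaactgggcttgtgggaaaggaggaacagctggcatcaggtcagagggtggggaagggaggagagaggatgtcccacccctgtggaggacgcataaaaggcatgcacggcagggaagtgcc
Cnfn, chr7:25369725-25369974, minus strand: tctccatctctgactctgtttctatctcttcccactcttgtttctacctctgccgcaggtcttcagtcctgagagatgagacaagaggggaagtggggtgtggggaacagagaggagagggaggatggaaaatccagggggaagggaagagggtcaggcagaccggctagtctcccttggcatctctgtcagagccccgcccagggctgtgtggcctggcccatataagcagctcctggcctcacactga

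In Krtdap, Sprr1a and Lor both an AP-1 and a TATA match were present, with 2 AP-1 matches in Sprr1a. Of the genes for AP-1 members, Fosl1 had 0 and 2 counts at E14 and stood at 6.48 and 4.9 CPM at E16. Junb went from 121 and 127 CPM to 2848 and 2101 CPM. A link between these genes and the motif matches was not tested. Junb is also a dissociation gene, like Fos, Fosb, Jun and Jund, and all 20 genes of that list were called higher in both organs. The change of Junb in hindstomach over the same days differed by a log2 of 1.00 that was not called.

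The basal genes changed in both directions, in shares close to the 20.8% called higher and 16.9% called lower over all genes tested. Of 22 tested, Krt5, Krt14, Krt15, Cav1 and Igfbp3 were called higher, Trp63, Sox2, Itga6, Lama5 and Pdpn lower, and 12 neither; the median log2 fold change was -0.30. Krt15, a basal keratin, went from 1302 and 1369 CPM to 3854 and 3424 CPM (log2 fold change 1.45, SE 0.42, adjusted p = 0.00709, edgeR; 0.0524 without E14 replicate 1). Krt14 went from 2.91 and 2.49 CPM to 536 and 448 CPM, a log2 fold change of 7.51 (SE 1.01). Krt5 went from 352 and 380 CPM to 1735 and 1356 CPM, a log2 fold change of 2.08 (SE 0.69, adjusted p = 0.0182, edgeR). The Krt5 libraries did not overlap between stages, but the call was lost without E14 replicate 1 (adjusted p = 0.103), without E14 replicate 2 (0.086), without E16 replicate 1 (0.0809) and with DESeq2 (0.219).

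Trp63 was at 455 and 458 CPM at E14 and at 77.3 and 86.6 CPM at E16, a log2 fold change of -2.48 (SE 0.53, adjusted p = 0.000831, edgeR). With epithelial scaling the change was -0.94 and was not called (adjusted p = 0.0984). Sox2, a foregut factor kept by squamous epithelium, fell from 190 and 153 CPM to 41.4 and 35.4 CPM, a log2 fold change of -2.16 that became -0.63 and lost its call with epithelial scaling. With that scaling the list held 11 members called higher and 0 lower; without E14 replicate 1, E14 replicate 2 or E16 replicate 1 it held 2, 3 and 3 called higher, and without E16 replicate 1 it held 3 called lower.

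Anchoring proteins did not move as a block. The integrin Itga6 fell from 186 and 197 CPM to 39.7 and 51.3 CPM (log2 fold change -2.07; -0.53, not called, with epithelial scaling), while its hemidesmosome partner Itgb4 was at 86.8 and 89.7 CPM and then at 51.4 and 57.7 CPM, under the fold minimum. Col17a1, the hemidesmosome collagen, was at 141 and 149 CPM and then at 98.3 and 120 CPM and was not called. Cav1, which coats membrane pits in many cell types, rose from 12.7 and 7.41 CPM to 1059 and 1362 CPM beside the muscle, endothelial and mesenchymal markers above. Its part in those cells was not tested.

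In the desmosome, the junction that holds keratinocytes together, 1 of 12 tested genes was called higher and 3 lower. These counts were 7 and 1 with epithelial scaling, and 3 were called higher with only the groups compared. Cdsn, the corneodesmosome protein of the outermost layers, had 0 counts at E14 and stood at 21.1 and 17.8 CPM at E16, at least 164-fold higher. Dsg2, the cadherin of simple and basal epithelium, fell from 170 and 181 CPM to 13.4 and 20.4 CPM, a log2 fold change of -3.38 (-1.83 with epithelial scaling, still called). The epidermal cadherins Dsg3 and Dsc3 were at 2.57 and 5.13 CPM and at 1.5 and 4.66 CPM at E14, and at 16.2 and 20.5 CPM and at 23.3 and 18.5 CPM at E16; neither passed the test (adjusted p = 0.114 and 0.0812, edgeR). Dsp, the plakin that ties desmosomes to keratin, fell by 1.95 on the log2 scale, or by 0.42 with epithelial scaling, where it was not called.

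The simple keratins parted ways. Krt8 fell from 987 and 1023 CPM to 377 and 347 CPM (log2 fold change -1.47, SE 0.23), and its partner Krt18 from 353 and 355 CPM to 144 and 166 CPM (-1.19, SE 0.17). Scaled to epithelial markers, of which both are members, these values were 0.06 and 0.35, and with DESeq2 or RLE size factors Krt18 was at -0.90, under the fold minimum. Krt19 was at 751 and 751 CPM and then at 728 and 804 CPM, and its log2 fold change of 0.03 was not called (1.57 and called with epithelial scaling). Krt7, a keratin of ducts and of mesothelium, rose from 367 and 377 CPM to 736 and 809 CPM (0.98, under the fold minimum, without E16 replicate 2), and Krt23 from 13.4 and 11.6 CPM to 96 and 67.7 CPM. The list's counts were 3 called higher and 2 lower; 1 was called higher without E16 replicate 2, 1 lower with DESeq2 or RLE size factors, and 4 higher and 0 lower with epithelial scaling. Over all keratin genes, 17 of 30 tested were called higher and 2 lower.

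Of the genes of the lipid barrier 13 of 28 tested were called higher and 2 lower. The count called lower was 1 without E16 replicate 1, with DESeq2, RLE size factors, no filter, the replicate block or thinned counts, 4 with only the groups compared and 0 with epithelial scaling. Alox12b, a lipoxygenase needed for the covalent lipid envelope of cornified cells, had 0 counts at E14 and was at least 87.7-fold higher at E16, at 12.8 and 7.96 CPM (not called with DESeq2, adjusted p = 0.24). Asprv1, a protease that matures filaggrin, rose from 8.34 and 4.7 CPM to 266 and 262 CPM (log2 fold change 5.34, SE 0.40). Acer1, an epidermal ceramidase, was at 0.171 and 0.145 CPM and then at 2.93 and 1.99 CPM. Abca12, the carrier of lamellar granule lipids, was at 0 in all 4 libraries.

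Of the proteases of the outer layers and their inhibitors 14 of 31 tested were called higher and 3 lower (22 and 0 with epithelial scaling). Klk10, a kallikrein protease, rose from 5.6 and 4.16 CPM to 84.7 and 69.3 CPM, and Klk7, which cleaves corneodesmosomes in skin, from 0 counts to 2.01 and 3.06 CPM, at least 21.4-fold. The inhibitors Slpi and Serpinb2 had 0 counts at E14 and rose at least 108-fold (Slpi) and 50.7-fold (Serpinb2). The membrane proteases St14 (matriptase) and Prss8 (prostasin), which act together in epithelia, fell from 188 and 200 CPM to 54.6 and 59.2 CPM and from 69.8 and 76.7 CPM to 33.8 and 32.6 CPM. Their log2 fold changes of -1.77 and -1.14 became -0.23 and 0.39 with epithelial scaling, and Prss8 was at -0.84 with DESeq2 or RLE size factors. The count called higher was 8 with DESeq2 and 7 without either E14 replicate; the count called lower was 1 with DESeq2 or RLE size factors and 5 with only the groups compared.

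Of the S100 and antimicrobial genes 20 of 24 tested were called higher and 0 lower, with a median log2 fold change of 5.41 (4.18 with bounds). In hindstomach 19 of the 24 were called higher and 0 lower, with a median of 4.21. The change was called higher in forestomach than in hindstomach for 0 of them and lower for 1. Of the 30 in the table, 13 were at 0 counts in both E14 forestomach libraries and could not be called lower. The calcium-binding proteins S100a14 and S100a16 went from 11.7 and 11 CPM to 98.6 and 90.9 CPM and from 140 and 137 CPM to 380 and 341 CPM. S100a8 and S100a9, which are made by neutrophils and by stressed keratinocytes, had 0 counts at E14 and stood at 237 and 191 CPM and at 301 and 243 CPM. In E16 hindstomach they were at 162 and 211 CPM and at 208 and 251 CPM, and the neutrophil granule genes Ngp, Camp and Lcn2 moved with them, Ngp to 477 and 401 CPM in forestomach and to 298 and 349 CPM in hindstomach. The part of neutrophils in these values was not tested.

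Across the epidermal differentiation complex, the run of neighbouring genes that holds the S100, Sprr, Lce and loricrin families, 66 genes were matched in the table and 27 were tested. Of these 17 were called higher and 0 lower. In hindstomach 15 of the 27 were called higher and 0 lower, and the change was called higher in forestomach for 2 and lower for 1. The complex took 0.113% and 0.107% of counts at E14 and 0.271% and 0.230% at E16. At E14, 48 of the 66 were at 0 counts in both libraries, and at E16 36 were. A tested gene at 0 counts in both E14 libraries could only be called higher or not called.

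**Figure D3:**
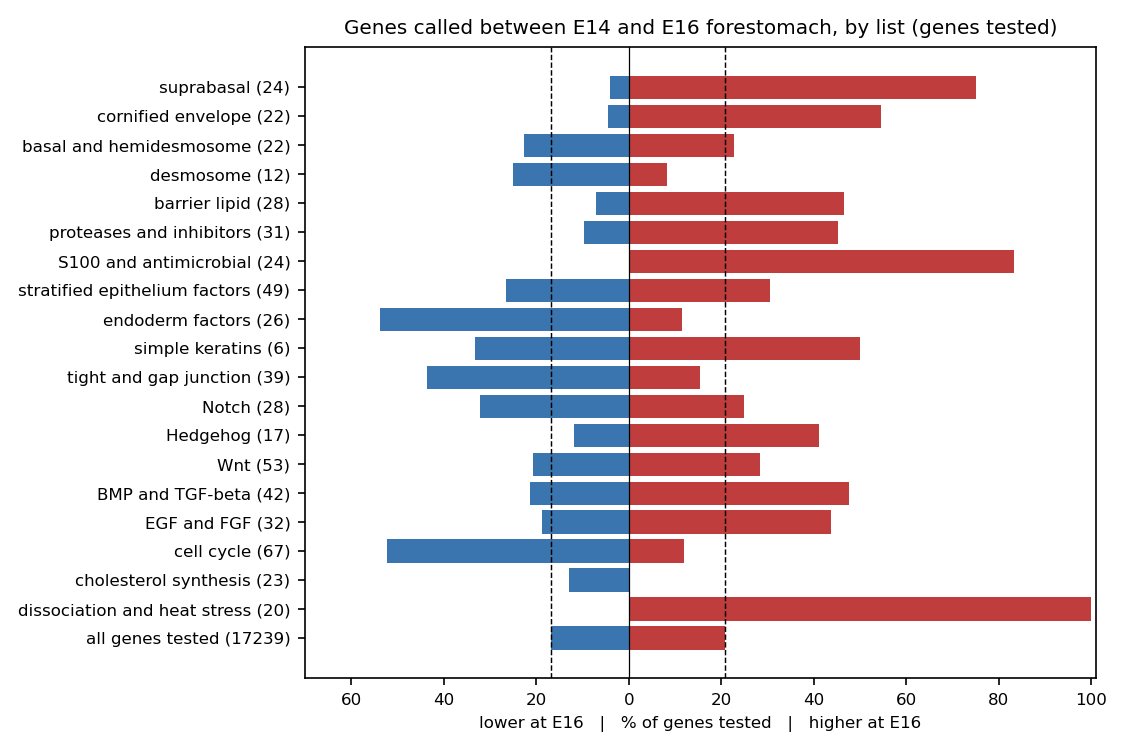
Share of tested genes (%) called higher (right) or lower (left) at E16 than at E14 in 19 gene lists and over all genes tested; the number tested is in brackets and the dashed lines mark the shares over all genes. Suprabasal, envelope, S100 and stress genes lie furthest to the right, and endoderm factors and cell cycle genes furthest to the left.

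Transcription factors of stratified and foregut epithelium rose and fell in like number: 15 of 49 tested were called higher and 13 lower. Among those that rose, Cebpb and Cebpd, C/EBP factors active in differentiating keratinocytes and in many other cells, went from 21.5 and 20.6 CPM to 508 and 417 CPM and from 3.94 and 3.51 CPM to 308 and 221 CPM. Hopx, a homeodomain protein of differentiating keratinocytes, went from 4.54 and 4.01 CPM to 53.1 and 49.9 CPM (log2 fold change 3.59, SE 0.19). Prdm1, the repressor BLIMP1 of terminal differentiation, went from 0.3 and 0.615 CPM to 13 and 10.1 CPM, and Pou3f1, a POU factor of suprabasal cells, from 0.171 and 0.0723 CPM to 5.25 and 5.05 CPM.

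Several factors with roles in barrier formation were not called. Klf4, needed for the skin barrier, was at 82.9 and 88.5 CPM and then at 185 and 143 CPM, a log2 fold change of 0.94 under the fold minimum (adjusted p = 0.000574, edgeR). Ovol1 was at 36.8 and 33 CPM and then at 54.5 and 51.1 CPM, and Zfp750 at 16.1 and 19.5 CPM and then at 11.9 and 11 CPM; neither was called. With epithelial scaling Klf4 and Ovol1 were called higher, at 2.46 and 2.13, and Ovol1 is itself on the list of epithelial markers. Klf4 was also called with DESeq2 and RLE size factors (1.23 each), with thinned counts (1.02) and without E16 replicate 2 (1.10).

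Grhl3, a Grainyhead factor of barrier formation, fell from 176 and 194 CPM to 64.8 and 47.1 CPM (log2 fold change -1.72, SE 0.54, adjusted p = 0.0117, edgeR). That call was lost with DESeq2 (0.0579), without E14 replicate 2 (0.0612), without E16 replicate 2 (0.0943) and with epithelial scaling (log2 fold change -0.20). Grhl2, a Grainyhead factor of epithelium at large, fell from 89 and 100 CPM to 15.3 and 11.3 CPM. With epithelial scaling 25 factors of the list were called higher and 1 lower; without E16 replicate 2, 7 were called lower, and with RLE size factors 8.

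Factors of endoderm and glandular stomach fell, 14 of 26 tested, and 3 rose, with a median log2 fold change of -1.98 (-1.89 with genes at 0 counts set to their bound). Foxa2, a forkhead factor of gut endoderm, was at 94.1 and 91.3 CPM at E14 and at 1.85 and 0.306 CPM at E16, a log2 fold change of -6.42 (SE 0.46, adjusted p = 1.8e-09, edgeR). It was still called lower with epithelial scaling, at -4.91. Its relative Foxa1 fell from 311 and 345 CPM to 57.6 and 43.9 CPM. Pdx1, a factor of antrum, duodenum and pancreas, was at 1.67 and 3.69 CPM at E14 and at 0 counts at E16, at least 5.81-fold lower. With epithelial scaling 8 of the list were called lower and 7 higher, and with DESeq2 5 were called higher.

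The 3 that rose, Sox17, Tcf21 and Hhex, are also expressed outside epithelium. Sox17 is among the endothelial markers and Tcf21 among the mesenchymal ones, and their levels at E16 were 9.88 and 14.4 CPM and 109 and 97.2 CPM. Genes of the glandular stomach rose in 10 of 26 tested (6 without E14 replicate 1) and fell in 3 (15 and 1 with epithelial scaling). Psca, a surface antigen of stomach epithelium, rose from 1.24 and 0.47 CPM to 710 and 733 CPM (log2 fold change 9.75), and Vil1, the brush border protein villin, fell from 1.63 and 2.1 CPM to 0 counts, at least 4.04-fold.

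The Hedgehog ligands Shh and Ihh fell. These epithelial ligands act on the mesenchyme around the gut through Ptch1 and the Gli factors. Shh was at 208 and 197 CPM at E14 and at 1.7 and 2.45 CPM at E16, a log2 fold change of -6.60 (SE 0.38, adjusted p = 8.5e-11, edgeR) and of -5.07 with epithelial scaling. Ihh fell from 24.7 and 32.8 CPM to 5.4 and 9.19 CPM, a change of -1.98 that became -0.44 and lost its call with epithelial scaling. Of 17 pathway genes tested 7 were called higher and 2 lower (10 and 1 with epithelial scaling); those higher included Gas1 and Hhip, which bind Hedgehog ligands on receiving cells, at 221 and 342 CPM and at 26.1 and 54.3 CPM, and Gli1 and Gli2. The mesenchymal markers rose beside them. The third ligand, Dhh, had 0 and 1 counts at E14 and stood at 0.926 and 4.59 CPM at E16, a ratio of 141 (95% counting interval 23.8 to 5730); it was called higher, but not without E14 replicate 1 (adjusted p = 0.0504). Without E14 replicate 1 or 2 the count called higher was 3 and 4, and Hhip was not called (adjusted p = 0.0576 and 0.0584).

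In the Notch pathway, which drives the step from basal to suprabasal in skin, 7 of 28 tested were called higher and 9 lower. The receptor Notch1 was at 82 and 99.3 CPM and then at 41.2 and 60.8 CPM, under the fold minimum (log2 fold change -0.83; called at -1.14 without E16 replicate 2). Notch3 fell from 115 and 143 CPM to 16.4 and 47.8 CPM and was called, but not with epithelial scaling (-0.44); the 2 E16 libraries lay far apart, both below E14. The ligand Jag1 and the target Hes1 fell by 1.56 and 1.54 on the log2 scale, and with epithelial scaling their changes were -0.03 and -0.01. The targets Heyl and Hey2, both also vascular genes, rose, Heyl from 0.0428 and 1.05 CPM to 27.5 and 16.2 CPM. The Hey2 call was lost without E14 replicate 1 (adjusted p = 0.172) or 2 (0.0968), without E16 replicate 1 (0.113) or 2 (0.0598) and with thinned counts (0.0745). With epithelial scaling 0 Notch genes were called lower and 13 higher; 4 were called lower without E16 replicate 1, and 4 higher without E16 replicate 2.

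Wnt genes were called higher in 15 of 53 tested and lower in 11. Those lower included receptors and feedback genes of the pathway: Notum, a secreted Wnt inhibitor, fell from 174 and 176 CPM to 5.4 and 10.1 CPM, Lgr5 from 13.2 and 10.4 CPM to 1.23 and 0.459 CPM, and the feedback genes Rnf43 and Axin2 from 162 and 149 CPM to 37 and 29.2 CPM and from 19.2 and 17 CPM to 2.32 and 3.06 CPM. Those higher included the ligands Wnt5a and Wnt2, which are made by gut mesenchyme, and Wnt10a, a ligand of squamous epithelium, which went from 7.62 and 6.94 CPM to 54.2 and 50.1 CPM. With only the groups compared 23 were called higher. With epithelial scaling 2 were called lower and 31 higher, and Axin2 was no longer called (adjusted p = 0.0941).

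BMP and TGF-beta genes were called higher in 20 of 42 tested and lower in 9 (28 and 2 with epithelial scaling). The ligands Bmp2 and Bmp4 rose from 6.89 and 4.23 CPM to 56.8 and 42.9 CPM and from 2.05 and 3.43 CPM to 39.1 and 39.5 CPM, beside the antagonist Fst, from 1.5 and 0.94 CPM to 85.4 and 105 CPM. Inhbb, an activin subunit, fell from 46.6 and 47.1 CPM to 0.309 and 2.76 CPM, and the receptor Tgfbr1 from 200 and 169 CPM to 34.4 and 35.5 CPM (-0.86, not called, with epithelial scaling). The mesenchymal markers, 18 of 19 called higher, rose from 0.0235% of counts in both E14 libraries to 1.52% and 1.72% at E16, and their part in the rises of Bmp2, Bmp4 and Fst was not tested.

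Of the receptors, ligands and feedback genes of the EGF and FGF families, 14 of 32 tested were called higher and 6 lower (20 and 2 with epithelial scaling). The EGF-type ligands Ereg and Areg had 0 counts at E14 and rose at least 77.9-fold (Ereg) and 55.8-fold (Areg), and Hbegf rose from 3.08 and 2.82 CPM to 57.6 and 38 CPM. Fgfr2, the epithelial receptor for mesenchymal FGFs, fell from 822 and 887 CPM to 210 and 202 CPM (log2 fold change -2.05, -0.52 with epithelial scaling). Erbb3 fell from 74.3 and 93.3 CPM to 7.87 and 11.2 CPM. Fgf7, a ligand made by mesenchyme, rose from 0.813 and 0.578 CPM to 20.1 and 14.5 CPM. Without E14 replicate 2 the count called higher was 8, and with DESeq2 or RLE size factors the count called lower was 3.

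**Figure D4:**
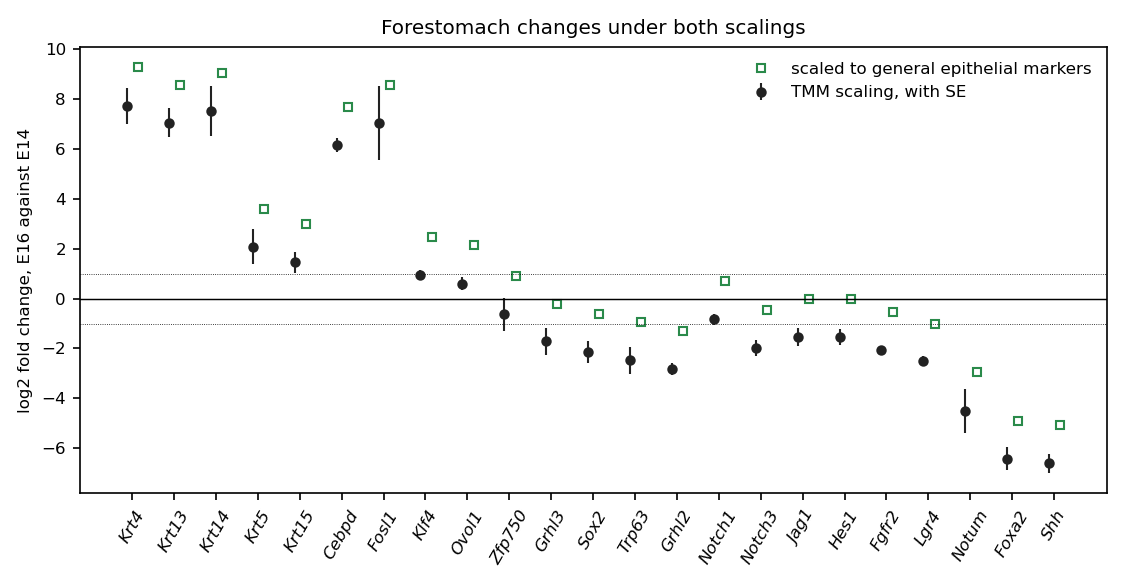
Log2 fold change of 23 genes at E16 against E14 in forestomach, with TMM scaling (filled circles, bars are SE) and after scaling to general epithelial markers (open squares); dotted lines mark the fold minimum. The keratins lie above 0 under both scalings, Foxa2, Shh and Notum lie far below 0 under both, and Jag1 and Hes1 move to about 0.

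Cell cycle genes fell in 35 of 67 tested and rose in 8. The DNA topoisomerase Top2a went from 339 and 379 CPM to 54 and 64.3 CPM, a log2 fold change of -2.60, and the spindle motor Kif11 from 141 and 133 CPM to 21.1 and 21.9 CPM. Mki67, the proliferation marker, fell from 147 and 146 CPM to 54.2 and 84.5 CPM, a log2 fold change of -1.08. It was -0.79 without E16 replicate 1, -0.78 with DESeq2 and 0.47 with epithelial scaling. Among those that rose were Cdkn1c, the cell cycle inhibitor p57, from 297 and 295 CPM to 1200 and 1257 CPM, and E2f2 and Cdc25b, both also high in erythroblasts, which moved beside Alas2. With epithelial scaling 5 cell cycle genes were called lower and 18 higher.

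Tight and gap junction genes fell in 17 of 39 tested and rose in 6. Cldn6, a claudin of embryonic epithelium, fell from 296 and 314 CPM to 6.79 and 10.3 CPM, a log2 fold change of -5.16, and the cadherin Cdh1 from 699 and 743 CPM to 102 and 91.7 CPM (-2.89, and -1.36 with epithelial scaling). Those that rose included Cldn5 and Gja4, which are genes of blood vessels, and Gjb2, a connexin of squamous epithelium, from 3 and 2.49 CPM to 6.64 and 10.9 CPM. With epithelial scaling 5 junction genes were called lower and 10 higher. Of 23 cholesterol synthesis genes 0 were called higher and 3 lower; these counts were 2 and 7 by adjusted p alone, and 15 and 0 with epithelial scaling.

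Fetal timing and imprinted genes changed in both directions, 9 of 22 called lower and 7 higher (3 and 10 with epithelial scaling). The chromatin protein Hmga2 went from 151 and 118 CPM to 9.57 and 8.27 CPM, and the RNA-binding proteins Igf2bp1 and Igf2bp3 from 114 and 125 CPM to 11.7 and 9.8 CPM and from 232 and 212 CPM to 54.8 and 60.8 CPM. Lin28a, an RNA-binding protein of early embryos, was called higher (adjusted p = 0.0449, edgeR), a call lost with no filter (0.0526), with thinned counts (0.142), without E14 replicate 1 (0.201) and without either E16 replicate (0.116 and 0.111). The imprinted genes Dlk1 and Mest rose to 877 and 824 CPM and to 216 and 263 CPM beside the mesenchymal markers.

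Between E12 and E14, the step before, 1307 genes (7.58%) were called higher and 885 (5.13%) lower. The lower count was 505 without E14 replicate 1, and with epithelial scaling 747 were called higher and 2372 lower; the list counts under these settings were not computed for this step. This comparison shares the E14 libraries with the one above, so each is given by its own values. Basal genes rose: 15 of 22 were called higher at E14 than at E12 and 0 lower, and Krt5, Krt15 and Trp63 went from 3.45 and 3.83, 20.6 and 20, and 15 and 12 CPM at E12 to the E14 levels given above. Of 24 suprabasal genes tested 12 were called higher, among them Krt13 and Sfn, and of 22 envelope genes 6 were called higher and 1 lower. Desmosome genes were called higher in 6 of 12, with Perp, a p63 target in desmosomes, from 23 and 32.7 CPM to 534 and 551 CPM, and at E16 at 742 and 583 CPM. Grhl3 rose from 8.07 and 8.57 CPM at E12 to its E14 level.

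In hindstomach over the same 2 days 2848 genes (16.5%) were called higher and 948 (5.5%) lower. The change in forestomach was tested against it as an interaction: 750 genes (4.35%) had a higher change in forestomach and 1282 (7.44%) a lower one. With RLE size factors these were 978 and 960, and with only the groups compared 1322 were higher. With epithelial scaling 7783 had a higher change in forestomach and 156 a lower one. The list counts of this difference were not computed with that scaling, and the values below are with TMM scaling. Of 24 suprabasal genes 4 differed upwards, Dmkn, Gjb2, Mal and Sbsn, and 2 downwards, Fabp5 and Sfn. Krt4 rose in both organs, in hindstomach from 0.459 and 0.338 CPM to 85.6 and 75.7 CPM, and the difference of log2 fold changes was 0.08 (SE 1.42). Krt13 rose in hindstomach too, to 31.2 and 35.4 CPM, so for these keratins the E16 levels differed between organs while the difference in fold change was not called.

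Of 22 envelope genes 3 had a higher change in forestomach and 1, Tgm1, a lower one. Sprr3 was among the former, with a difference of 8.01 (SE 2.10, adjusted p = 0.0202, edgeR) and 0.444 and 0.957 CPM in E16 hindstomach. Of 12 desmosome genes Cdsn had a higher change, being at 0 in both E16 hindstomach libraries, and Dsg2 (-2.46) and Pkp1 (-4.34) a lower one. Of 6 simple keratins 3 had a lower change in forestomach and 0 a higher one. Krt8 was at 2738 and 2673 CPM in E16 hindstomach, from 1375 and 1415 CPM at E14, and the difference in log2 fold change was -2.43 (SE 0.32). Of 26 endoderm factors 10 had a lower change in forestomach and 1 a higher one; Foxa2 differed by -3.69 (SE 0.57) and Shh by -4.72 (SE 0.46). All 11 general epithelial genes with a called difference were lower in forestomach, Epcam by 1.85 on the log2 scale.

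Against small intestine, 2422 genes (14%) had a higher change in forestomach and 1959 (11.4%) a lower one. With epithelial scaling these were 10584 and 240, and the list counts below are with TMM scaling. Of the suprabasal genes 6 differed upwards and 2 downwards, of the basal genes 3 and 5, and of the envelope genes 4 and 1. The markers of other cell types differed here as well: in small intestine their sum was 0.0887% and 0.0944% at E14 and 0.320% and 0.344% at E16. All 10 muscle genes had a higher change in forestomach than in small intestine, and 5 of 10 a higher change than in hindstomach.

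**Figure D5:**
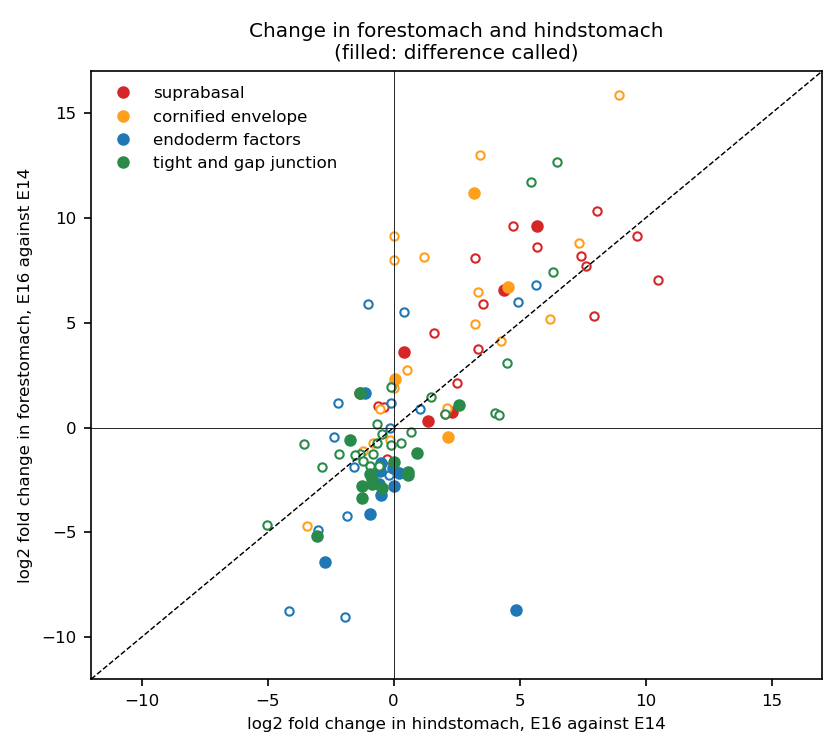
Log2 fold change from E14 to E16 in hindstomach (x axis) and forestomach (y axis) for tested genes of 4 lists; filled points have a called difference between the organs and the dashed line marks equal change. Genes at 0 in a group have fitted values that depend on the prior count. At E16 against E14, 18 of 24 suprabasal and 12 of 22 envelope genes are called higher in forestomach, and 13 and 8 in hindstomach. The change is called higher in forestomach than in hindstomach for 4 suprabasal and 3 envelope genes. Endoderm and junction genes with a called difference lie mostly below the line.

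By size alone, among genes above a mean level of 2 on the log2 CPM scale whose stages lay apart, the 12 genes that rose most included Cnfn, S100a9, S100a8, 2300002M23Rik, Ngp, Lcn2, Camp, BC100530, Alas2, Retnlg and Cpa3. Of those named, all but Alas2 had 3 counts or fewer in total at E14. Cpa3, a mast cell protease, was at 50.6 and 43 CPM at E16. The unnamed gene 2300002M23Rik was at 128 and 112 CPM at E16, at 0.177 and 2.61 CPM in E16 hindstomach and at 0 counts at E14; it was not called with DESeq2 (adjusted p = 0.106). Among the 12 that fell most, all at 0 counts at E16, were Greb1, an oestrogen response gene, from 8.39 and 9.51 CPM (at least 19.4-fold lower), and Nkx2-2, an endocrine factor, from 4.66 and 5.21 CPM (at least 10.7-fold lower).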

How the data were processed

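Per the labels' protocols, Epcam-sorted cells were made into libraries with a SMARTer low-input kit and sequenced as 75-base single-end reads. The submitters' processing notes name STAR 2.5.3a, HTSeq and mm9; strand handling and annotation are not given in the sources used here. The values are raw counts per gene symbol deposited by the authors. Of the table, 2 rows without a symbol and 6 columns were not used. The members and lists were chosen with earlier results of these data known.

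Counts of 27 embryonic libraries in 13 groups were fitted together (WT and Cdx2-/- groups; replicates of the Shh-Cre group differed most, with a chi-square per degree of freedom of 104) with edgeR 4.0.16 (R 4.3.3; filterByExpr with a minimum count of 10, TMM, glmQLFit and glmQLFTest, Benjamini-Hochberg adjustment). SE was taken from the fold change and its F statistic. Where a group had 0 counts in every library, a fold is a lower bound against 3 counts per library; with 1 to 3 counts in all, a ratio with a 95% exact interval is given. Named genes were the canonical markers, up to 4 called members per list and direction, and the 12 largest changes per direction among genes above a mean log2 CPM of 2 whose libraries lay apart between stages; further list members were chosen as examples after their values were seen. On simulated data, 17 of 67 genes changed 2-fold, 30 of 67 changed 4-fold and 45 of 66 changed 8-fold were recovered in the E16 against E14 comparison, with 4 calls among unchanged genes of 16810 tested. The simulation kept all other genes at their E14 level in both stages, up and down changes being mixed. It therefore does not cover a wide shift such as that in the data, where 37.7% of genes were called. Alternatives were DESeq2 1.42.0, RLE size factors, no filter, only the groups compared, thinned counts, a replicate block, each library left out, and scaling to epithelial markers. Some genes that the rule named are not reported here.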

Additional observations from a re-analysis of the deposited data

Results flagged for a closer look

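The changes from E14 to E16 differed between forestomach and hindstomach in 2032 genes and between forestomach and small intestine in 4381, by the interaction test of edgeR. Fitted differences of genes at 0 counts in a group depend on the prior count and are no bounds.

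Against hindstomach, the genes named by size with a higher change in forestomach were 2310042E22Rik (11.39 on the log2 scale), Galnt6 (11), Agt (9.15), Cxcl10 (8.77) and AW112010 (8.27). Those with a lower change were the intestinal factor Cdx1 (-13.55), the trypsinogen gene Prss2 (-10.61), Prdm9 (-9.91), Rab19 (-9.74) and the villin gene Vil1 (-9.39).

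Against small intestine, those higher were 2310042E22Rik (14.48), Igfbp6 (13.93), Trpm5 (13.46), Pth1r (13.33) and Gpr133 (13.33). Those lower were Mfi2 (-16.31), Spink4 (-15.49), Ces1e (-13.51), Cdx1 (-13.45) and Slc3a1 (-13.26).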

How the results depend on the processing

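With scaling to general epithelial markers, chosen after seeing the data, the E16 against E14 comparison had 9760 calls (9438 higher, 322 lower), the difference from hindstomach 7939 (7783 and 156), the difference from small intestine 10824 (10584 and 240), and E14 against E12 had 747 higher and 2372 lower. Under it the log2 fold changes of 11 genes named by the rule reversed, of which 10 are given here: Anxa8 0.05, Fgfr3 0.32, Idi1 0.31, Krt18 0.35, Krt8 0.06, Mki67 0.47, Pkp2 0.10, Ppl 0.40, Prss8 0.39 and Tmprss4 0.46; the construction moves all genes by the same factor. By adjusted p alone E14 against E12 had 4357 calls (2140 higher, 2217 lower). The count with a higher change than in hindstomach was 1150 with DESeq2 and 1322 with only the groups compared. Leaving out 1 library gave 5513 to 6076 calls for E16 against E14, 1417 to 1972 against hindstomach, 3509 to 4016 against small intestine and 1589 to 1733 for E14 against E12, whose lower calls were 505 without E14 replicate 1 and ranged to 698. Replicate numbers share only a number: their differences correlated at 0.00455 between E14 and E16, and the replicate block gave 6396, 1870, 4139 and 2178 calls. The E16 libraries, at 5970227 and 6335340 counts, limit what low genes can show; thinned to the shallowest library, 6110 genes were called.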

Other observations

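Squamous genes were also counted outside the stomach, in 3 E16 small intestine libraries of Cdx2f/f; Shh-Cre embryos on a mixed B6;129 background, sorted for Epcam; they entered the shared estimate of the spread but none of the comparisons above. Krt4 ranged from 244 to 1079 CPM there, Krt13 from 241 to 1036 CPM and Sprr1a from 362 to 747 CPM. Lor ranged from 0.134 to 2.1 CPM, Krt14 from 2.35 to 34.6 CPM and Trp63 from 7.91 to 21.1 CPM. In WT small intestine at E16 Krt4 was at 0.302 and 0.491 CPM. In the 3 libraries the highest shares of counts were 0.0298% for immune markers, 0.0238% for muscle, 0.00735% for mesenchyme, 0.00712% for nerve, 0.00416% for endothelium and 8.3e-04% for erythroid markers.

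Of the Y-linked genes counted in forestomach, Ddx3y was at 32.4 and 34.6 CPM at E12, at 0 in both E14 libraries and at 21 and 31.5 CPM at E16, and Eif2s3y at 33.1 and 40.6 CPM, at 0 and at 21.9 and 24.6 CPM.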
